A study of Mus musculus with 6 samples.

Results

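The D-type cyclins and the kinases they activate are described here: the genes Ccnd1, Ccnd2 and Ccnd3, which encode cyclins D1, D2 and D3, and Cdk4 and Cdk6, which encode cyclin-dependent kinases 4 and 6. They were taken by name, as all probes whose RefSeq accession maps to one of these 5 symbols, and not by any measured value. This gave 8 of the 41174 probes of the array, and the 5 genes were among 29194 genes and transcripts tested, 15651 of them with a symbol. The RNA came from the mouse cell line Lhx2. Such lines are known as blood stem and progenitor-like cells that grow because the homeobox gene Lhx2 is forced on in them, and here they grew with stem cell factor and interleukin 6. In both groups serum had been replaced by albumin overnight. The treated group then received TGF-β1, a cytokine that signals through SMAD proteins, for 2 h at 10 ng/ml, and the untreated group received none. Each group had 3 arrays, from 3 harvests that the series describes as independent, so all values come from 1 cell line. Arrays that carry one replicate number, 1 from each group, form a pair.

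D-type cyclins are the part of the cell cycle engine that answers to growth factors. They are short-lived proteins whose genes are switched on by mitogens and cytokines, and each can bind CDK4 or CDK6. The active kinase phosphorylates the retinoblastoma protein and its relatives p107 and p130, which releases E2F transcription factors and lets the cell enter S phase. INK4 proteins such as p15 and p18 block CDK4 and CDK6 directly, and CIP/KIP proteins such as p21, p27 and p57 bind the assembled complexes. Cyclins D2 and D3 and CDK6 have well-known roles in blood progenitors, and TGF-β is a classic brake on G1 progression in these cells.

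Levels are given as the log2 of the background-corrected signal relative to the 75th percentile of the array, so that 0 is a transcript at that percentile. That percentile lay between 794.2 and 1031 signal units, and each member probe was well above background on 6 of 6 arrays. The TGF-β feedback genes Smad7 (11.8-fold higher, adjusted p = 0.00115 by limma) and Skil (11-fold higher, adjusted p = 0.00101) rose in these arrays. The Lhx2 probe had levels between -4.55 and -3.86 and was well above background on 6 of 6 arrays, and the sources used here do not give whether it lies within the introduced sequence. The arrays lay on 2 slides. Pair 1 was on slide 1, pair 2 on slide 2, and pair 3 was split, with its untreated array on slide 1 and its treated array on slide 2.

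None of the 5 genes passed the threshold, which was an adjusted p under 0.05 in the limma fit, adjusted by Benjamini-Hochberg over all 29194 genes and transcripts. These p-values measure the spread between the arrays of 1 line. The share of all genes tested that passed was 0.253% (74 genes), made up of 0.226% higher and 0.0274% lower. With the replicate number as a block, which compares within pairs, 0 of the 5 passed and the share of all genes was 0.651% (190 genes), made up of 0.531% higher and 0.12% lower. At an unadjusted p under 0.05, 0 of the 5 passed without the block and 2 with it (Ccnd1 and Ccnd3), where 5.77% and 10.9% of all genes did. The 2 genes with the largest fitted differences, Ccnd1 and Ccnd3, were higher on the treated array in each of the 3 pairs, which 14.1% of all genes were, and 34.2% of all genes kept one direction in all 3 pairs. Ccnd2, Cdk4 and Cdk6 went in different directions in different pairs. The groups of untreated and treated arrays overlapped for each of the 5 genes, while they did not overlap for 10.4% of all genes (5.37% with the treated arrays higher and 5.05% lower).

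**Figure D1:**
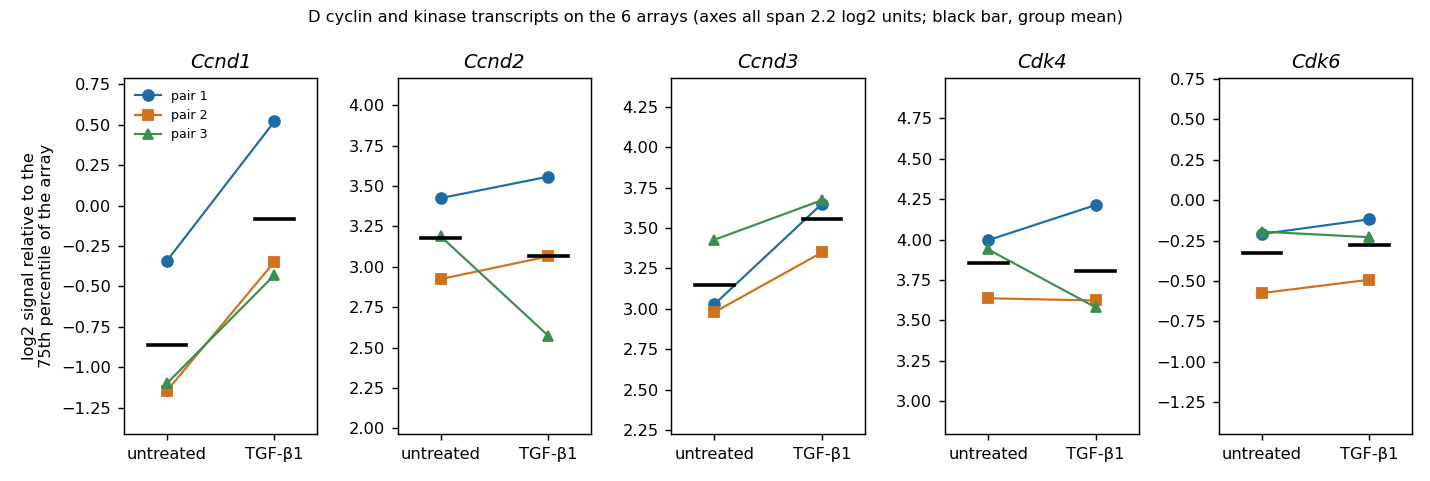
Level of each gene on the 6 arrays, as log2 signal relative to the 75th percentile of the array, with lines joining the arrays of a pair and black bars at the group means. The 3 Ccnd1 lines run nearly parallel, with differences of 0.86, 0.80 and 0.67, while for Ccnd2 the line of pair 3 falls by 0.62 and the others slope slightly up.

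Cyclin D1 is the family member best known as a target of mitogen signalling. On the untreated arrays Ccnd1 had levels of -0.34, -1.15 and -1.10 for replicates 1, 2 and 3, and on the treated arrays 0.52, -0.35 and -0.43. Both arrays of pair 1 were higher than those of the other pairs, and the untreated array of pair 1 lay just above the treated arrays of pairs 2 and 3, which is where the groups overlap. Within pairs the treated array was higher by 0.86, 0.80 and 0.67, with an SD between pairs of 0.10. The fitted log2 difference was 0.78 (SE 0.33, n = 3 per group), or 1.71-fold with a 95% confidence interval from 0.986-fold to 2.98-fold, and its adjusted p was 0.895. Compared within pairs the interval narrowed to 1.41-fold to 2.08-fold and the adjusted p was 0.0829. By its p within pairs Ccnd1 was number 344 among all genes tested. A difference of greater size, in either direction, was found for 2.62% of all genes.

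Ccnd1 also differed between harvests. The mean of the pair was 0.09 for pair 1, -0.75 for pair 2 and -0.77 for pair 3, a range of 0.85 log2 units, and 12.3% of all genes had a wider range. The summed level of the fibroblast and stromal markers also differed between harvests. In multiples of the 75th percentile, it was 21.4 and 24.8 on the arrays of pair 1, 65.1 and 62.9 in pair 2, and 1.68 and 1.94 in pair 3. Megakaryocyte marker sums differed too, at 70.8 and 60.5 in pair 1, 58.2 and 63.5 in pair 2, and 20.7 and 17.9 in pair 3. These sums rest mostly on the brightest genes, Dcn and Col1a2 in the first list and Pf4 in the second. On the untreated arrays Col1a1 and Col3a1 ranked the harvests as Dcn did, and Itga2b and Gp9 as Pf4 did. Lum (-4.09, -4.01 and -4.28 in pairs 1, 2 and 3) and Gp1bb (-2.83, -2.46 and -2.95) differed little there, so not every marker of a list shifted with the harvest. Whether the cell content of a harvest had a part in its Ccnd1 level was not tested. In a bulk sample fewer cells of a type and less RNA per cell cannot be told apart.

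The Ccnd1 difference was 0.86 in pair 1, wholly on slide 1, and 0.80 in pair 2, wholly on slide 2. Among all arrays of slide 1 it was 1.24, and among those of slide 2 it was 0.76. These 2 values are not within pairs. On slide 1 the treated array is that of pair 1, and the untreated arrays are those of pairs 1 and 3. A fit that held the slide fixed gave 1 (SE 0.25, adjusted p = 0.301). In pairs 1 and 2, each on a single slide, it was 0.83 (SE 0.08, adjusted p = 0.0743). Leaving out the treated array of replicate 1 lowered it to 0.47, and leaving out the untreated array of replicate 1 raised it to 1.04. With the authors' deposited log2 values in place of the scanner signal and the replicate block together, which was an analysis added once the data had been seen, Ccnd1 was 0.70 higher and passed (adjusted p = 0.018). In that setting 719 genes passed.

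**Figure D2:**
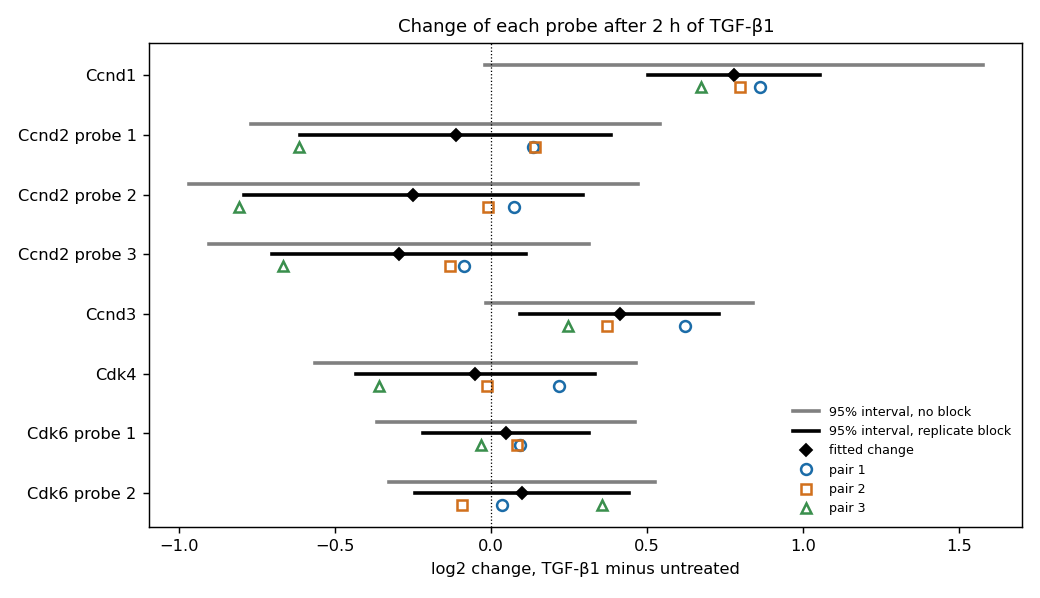
Log2 change of each of the 8 probes, with the fitted value (diamond), its 95% confidence intervals without and with the replicate block (grey and black lines) and the 3 pair differences (open symbols). The black interval lies to the right of 0 for Ccnd1 (0.50 to 1.05) and Ccnd3 (0.09 to 0.73) and spans 0 for the other probes.

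Cyclin D3 is the D cyclin most used in maturing blood cells. Ccnd3 had untreated levels of 3.03, 2.98 and 3.43 and treated levels of 3.65, 3.35 and 3.67. Each treated array was above its own partner, by 0.62, 0.37 and 0.24, and the untreated array of pair 3 lay above the treated array of pair 2. The fitted log2 difference was 0.41 (SE 0.18, adjusted p = 0.909), or 1.33-fold with a 95% confidence interval from 0.987-fold to 1.79-fold. Within pairs the interval was 1.06-fold to 1.67-fold and the adjusted p was 0.3365. The difference was 0.42 within slide 1 and 0.53 within slide 2, and it stayed between 0.33 and 0.55 when any 1 array was left out.

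The RefSeq promoter table (build GRCm38.p6) holds 3 of the 5 genes, Ccnd3, Cdk4 and Cdk6, with 4 start sites in all. Each entry runs from 250 bases before the start to 50 after it. The promoters were searched on both strands for the SMAD box CAGAC, a motif that SMAD proteins bind. They were searched likewise for the E-box, which MYC and its partners bind and which is spelled CACGTG. They are printed here because TGF-β1 acts through SMAD proteins and because MYC is a known regulator of Cdk4. Ccnd3 has 2 start sites, both on the + strand of chromosome 17, at chr17:47504801-47505100 and chr17:47593217-47593516. Which of them the probe's transcript uses was not tested. Capitals mark SMAD boxes, which read as GTCTG where they lie on the opposite strand.
Ccnd3 upstream start: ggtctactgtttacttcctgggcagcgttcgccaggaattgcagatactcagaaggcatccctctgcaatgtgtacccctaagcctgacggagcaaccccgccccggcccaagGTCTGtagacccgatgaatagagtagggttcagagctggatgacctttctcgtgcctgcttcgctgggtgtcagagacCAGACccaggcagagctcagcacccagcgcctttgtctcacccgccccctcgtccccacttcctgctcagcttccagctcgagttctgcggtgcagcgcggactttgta
Ccnd3 downstream start: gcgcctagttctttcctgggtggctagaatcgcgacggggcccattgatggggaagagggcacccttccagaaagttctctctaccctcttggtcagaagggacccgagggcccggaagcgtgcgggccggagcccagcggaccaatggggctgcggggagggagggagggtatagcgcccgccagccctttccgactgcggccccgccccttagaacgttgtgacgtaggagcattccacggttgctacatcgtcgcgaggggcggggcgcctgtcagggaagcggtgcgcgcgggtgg
The upstream promoter held 2 SMAD boxes, whose first bases lie at positions -137 and -59 from the start, and the downstream promoter held 0. Of all 32851 promoters of this length in the table, 49.6% held at least 1 SMAD box and 16.2% at least 2. Neither Ccnd3 promoter held the E-box. A match to these letters describes the sequence and does not show binding.

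Cyclin D2 is the D cyclin tied most closely to cytokine signalling and to MYC in blood cells. The probe taken for the gene, the brightest of 3, had untreated levels of 3.43, 2.92 and 3.19 and treated levels of 3.56, 3.06 and 2.57. The treated array of replicate 3 was the lowest of the 6. Pairs 1 and 2 differed by 0.13 and 0.14 and pair 3 by -0.62, and the fitted log2 difference was -0.11 (SE 0.27, adjusted p = 1), with a 95% confidence interval from 0.586-fold to 1.46-fold. The other 2 Ccnd2 probes gave -0.25 (SE 0.30) and -0.30 (SE 0.25), each with an adjusted p of 1. Their values for pair 3 were -0.81 and -0.67, so the 3 probes of this transcript all had their lowest treated level on the same array. Without that array the Ccnd2 difference was 0.13, without the untreated array of replicate 1 it was 0.01, and among the arrays of slide 1 it was 0.25. Pair 3 is the pair split between slides.

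CDK4 is the kinase partner found in most dividing cells. Cdk4 had untreated levels of 4.00, 3.64 and 3.94 and treated levels of 4.21, 3.62 and 3.58. The pair differences were 0.22, -0.01 and -0.36, which run from higher to lower, and the treated arrays of pairs 2 and 3 were the lowest of the 6. The fitted log2 difference was -0.05 (SE 0.22, adjusted p = 1), with a 95% confidence interval from 0.675-fold to 1.38-fold. Within pairs the interval was 0.738-fold to 1.26-fold. The difference was 0.04, 0.06 and 0.02 without the treated arrays of replicates 2 and 3 and the untreated array of replicate 1, and 0.25 among the arrays of slide 1.

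The Cdk4 promoter stands at chr10:127063285-127063584 on the + strand (GRCm38.p6), and the Cdk6 promoter at chr5:3343643-3343942 on the + strand. Capitals mark the E-box CACGTG, whose letters read the same on both strands.
Cdk4: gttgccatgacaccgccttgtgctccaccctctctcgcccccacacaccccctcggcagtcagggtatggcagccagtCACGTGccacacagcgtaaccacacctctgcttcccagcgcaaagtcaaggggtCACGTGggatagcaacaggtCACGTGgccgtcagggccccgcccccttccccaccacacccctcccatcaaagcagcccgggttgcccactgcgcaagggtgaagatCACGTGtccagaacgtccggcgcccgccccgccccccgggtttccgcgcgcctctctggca
Cdk6: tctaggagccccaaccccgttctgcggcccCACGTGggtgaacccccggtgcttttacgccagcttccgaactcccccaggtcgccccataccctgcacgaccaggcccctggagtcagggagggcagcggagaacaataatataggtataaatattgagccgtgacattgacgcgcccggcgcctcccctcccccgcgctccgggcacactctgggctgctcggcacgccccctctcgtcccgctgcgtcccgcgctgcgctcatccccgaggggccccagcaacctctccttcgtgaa
Cdk4 held 4 E-boxes, with first bases at positions -172, -118, -98 and -11 from the start, and Cdk6 held 1, at -220. At least 1 E-box was found in 7.15% of the 32851 promoters, and 8 promoters (0.024%) held at least 4. Neither promoter held a SMAD box. Another 3 motifs were searched on both strands of the 4 promoters. The CRE core TGACG was found 1 time in each of the 4, beside 20.8% of all promoters with at least 1. The GC box GGGCGG was found 2 times in each Ccnd3 promoter, 3 times in Cdk4 and 0 times in Cdk6, beside 35.7% of all promoters. The E2F motif TTCCCGC was found in none of the 4, beside 4.6% of all promoters. The E-box is the textbook site through which MYC proteins act on Cdk4. In the same arrays Myc had untreated levels of 4.01, 3.49 and 4.09 and treated levels of 3.45, 2.96 and 3.45. The log2 difference was -0.575 (SE 0.225, adjusted p = 0.794 by limma, and 0.134 with the replicate block), so Myc was not called. Its groups did not overlap, with the treated arrays lower, as for 5.05% of all genes tested. Whether MYC acts on Cdk4 in these cells was not tested.

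CDK6 is the partner kinase that is prominent in blood stem and progenitor cells. The probe taken for Cdk6 had untreated levels of -0.21, -0.57 and -0.19 and treated levels of -0.12, -0.49 and -0.23. The arrays of pair 2 were the lowest in both groups, and the pair differences were small, at 0.09, 0.08 and -0.03. The fitted log2 difference was 0.05 (SE 0.17, adjusted p = 1), with a 95% confidence interval from 0.773-fold to 1.38-fold and from 0.855-fold to 1.25-fold within pairs. The second probe gave 0.10 (SE 0.18), with pair differences of 0.04, -0.09 and 0.35. The probes differed in pair 3, where the first gave -0.03. Without the treated array of replicate 1 the Cdk6 difference was -0.03, and without the untreated array of replicate 2 it was -0.08.

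The differences between members can be read within an array, where the scaling cancels. The change of Ccnd1 exceeded that of Cdk6 by 0.77, 0.72 and 0.71 in pairs 1, 2 and 3, that of Cdk4 by 0.65, 0.81 and 1.03, and that of Ccnd2 by 0.73, 0.66 and 1.29. It exceeded that of Ccnd3 by 0.24, 0.43 and 0.43. In these 4 comparisons the sign was the same in 3 of 3 pairs. The change of Ccnd3 was above that of Ccnd2, Cdk4 and Cdk6 in each pair as well, by 0.53, 0.46 and 0.37 on average. In an exact two-sided sign-flip test over the 3 pairs the smallest p that the design allows is 0.25, and 7 of the 10 comparisons between members had that value, so none of the 10 can pass a threshold here.

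Genes most like each member over the 6 arrays were ranked by Pearson's r among named genes whose SD was at least 0.5 times that of the member. The nearest to Ccnd1, of 5098 candidates, were Rai14 (r = 0.989), Zfpm1 (0.989) and Eef2k (0.983), with log2 differences of 0.47, 0.62 and 0.45. Those nearest to Ccnd3, of 12475, were Rab20 (0.996), Ubn1 (0.991) and Klc4 (0.986), with 0.22, 0.30 and 0.31. Ccnd2 was followed by Manbal (0.9996), Trim44 (0.986) and Tmem120a (0.984), Cdk4 by Psmd9 (0.997), Poldip2 (0.989) and Mcm7 (0.988), and Cdk6 by Eipr1 (0.996), Tinf2 (0.996) and Smarca5 (0.995). These are descriptions over 6 arrays that share 3 harvests. Without and with the block 0 of these 15 genes passed the threshold, beside 0.253% and 0.651% of all genes tested. They were picked for their likeness to members that did not pass, so this count adds no information.

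The genes around the D cyclins were read from 11 lists of 117 distinct genes, of which 112 were measured. None passed the threshold in the fit without the block, and 1, Mycn, passed with it and was lower, beside 0.253% and 0.651% of all genes tested. With array weights and no block 4 of the 112 passed, which were Bcl6 and Ctnnb1 (0.86 and 0.57, higher), Myc (-0.94) and Ccng2 (0.80). Mycn did not pass (adjusted p = 0.0529 by limma), and 660 of all genes passed in that setting. There the treated array of replicate 2 had a weight of 5.34 and the other arrays 0.373 to 1.95, so that fit rests largely on 1 array. In it 8133 of all genes had an unadjusted p under 0.05 by limma. In all 3 pairs 17 of the 112 were higher and 33 lower, beside 14.1% and 20% of all genes tested. Their median log2 difference was -0.02, and that of all genes tested was -0.01.

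Among the INK4 inhibitors 3 of 4 were measured and had a median of 0.14. That is the value of Cdkn2b, which encodes p15 (SE 0.19), with low levels between -5.43 and -4.81. The median was -0.23 with another background correction, normexp, and -0.12 among the arrays of slide 1. Cdkn2c, which encodes p18, was lower in each pair (-0.38, -0.38 and -0.17; adjusted p = 1, and 0.428 with the block), while Cdkn2d, which encodes p19, had 0.18 (SE 0.20). The 3 CIP/KIP genes had a median of 0.24, and of -0.12 with normexp. Cdkn1a, which encodes p21, had 0.50 (SE 0.23, adjusted p = 0.936 by limma, and 0.368 with the block), with pair differences of 0.87, 0.43 and 0.21. Cdkn1b, which encodes p27, had 0.24 (SE 0.21), and Cdkn1c, which encodes p57, 0.07 (SE 0.15). All 3 pocket protein genes had values below 0 in each pair, as 20% of all genes tested did. Some of these values were close to 0, at -0.007 for Rb1 and -0.004 for Rbl1 in pair 2 and -0.04 for Rbl2 in pair 3. The fitted differences were -0.25 for Rbl2 (p130, SE 0.14), -0.12 for Rbl1 (p107, SE 0.18) and -0.11 for Rb1 (SE 0.16). None of these genes was called.

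The 10 E2F and DP genes spread to both sides, with 5 above and 5 below 0 and a median of -0.01. E2f2, an activating E2F, had 0.67 (SE 0.43, adjusted p = 1 by limma, and 0.259 with the block), with pair differences of 0.93, 0.85 and 0.25. E2f5, which works with p130 as a repressor, had -0.40 (SE 0.13, adjusted p = 0.613, and 0.255 with the block), with pair differences of -0.38, -0.41 and -0.41. The 20 E2F target genes of S phase entry, among them the MCM helicase genes, Pcna and the E cyclins, had a median of -0.05 and values between -0.23 and 0.37. The highest was Cdk2, the partner kinase of cyclin E, whose pair differences were -0.22, -0.03 and 1.37, so that its value came from pair 3. Cdc25a, the phosphatase that activates CDK2, likewise had -0.14, 0.02 and 0.94. The 6 genes of kinase activation and folding had a median of -0.10, with Mnat1 at 0.28 (SE 0.14) and Cdk7 at -0.24 (SE 0.17), both subunits of the CDK-activating kinase. The 13 measured genes of D cyclin turnover had values between -0.14 (Fbxo4, an F-box protein) and 0.15 (Cryab, its partner).

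Of 18 measured transcriptional regulators of D cyclin genes, 11 had values above 0 and 7 below, with a median of 0.08. Mycn, a MYC-family factor, had untreated levels of -0.76, -1.34 and -3.39 and treated levels of -5.69, -4.99 and -6.52, well above background on all 6 arrays. The lowest signals well above background on the treated arrays were -7.07, -6.96 and -7.25, so the treated Mycn levels lay towards that floor. Mycn was 14.9-fold lower in the fit (log2 difference -3.90, SE 0.72), with an adjusted p by limma of 0.1455 without the block and 0.0397 with it. The call was lost with the block on pairs 1 and 2 alone (-4.29, adjusted p = 0.0612), when the slide was held fixed (-4.01, adjusted p = 0.226) and with the block on normexp values (-2.11, adjusted p = 0.249). Averaged over its probes, Mycn had -2.15, and with the authors' matrix values it had -2.60. Bcl6, which encodes a repressor known to act on Ccnd2, had 1.02 (SE 0.20, adjusted p = 0.184 by limma, and 0.0874 with the block). Its groups did not overlap, with the treated arrays higher, as for 5.37% of all genes tested. Bcl6, Myc, Ctnnb1, Cdkn1c, Cdkn2b and Rb1 were named outside the rule, after their values were seen. So were the single stem and progenitor markers given below. The 7 binding partners and other substrates had values between -0.25 (Wdr77, a partner of the methyltransferase PRMT5) and 0.26 (Dmtf1, a cyclin D-binding factor).

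Among the other cyclins and cyclin-dependent kinases 29 genes were measured. Without and with the block they gave 0 calls, beside 0.253% and 0.651% of all genes tested. With array weights 1 of them, Ccng2, passed (adjusted p = 0.049 by limma), where 660 of the 29194 genes tested did. Counts this small cannot set these genes apart from all genes. The 15 other cyclins had a median of 0.01, with Ccng2 at 0.50 (SE 0.22, adjusted p = 0.922 by limma, and 0.285 with the block) and Ccng1 at -0.24 (SE 0.14). The difference for Ccng2, a cyclin linked to cell cycle exit, was 0.34, 0.39 and 0.78 in the 3 pairs. The 14 other kinases had a median of -0.07, with values from -0.34 for Cdkl1 to 0.30 for Cdk17. In the main fit Ccnd1 therefore had a larger difference than any of these 29 genes. With array weights the order changed, with Ccng2 at 0.80 and Ccnd1 at 0.37.

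**Figure D3:**
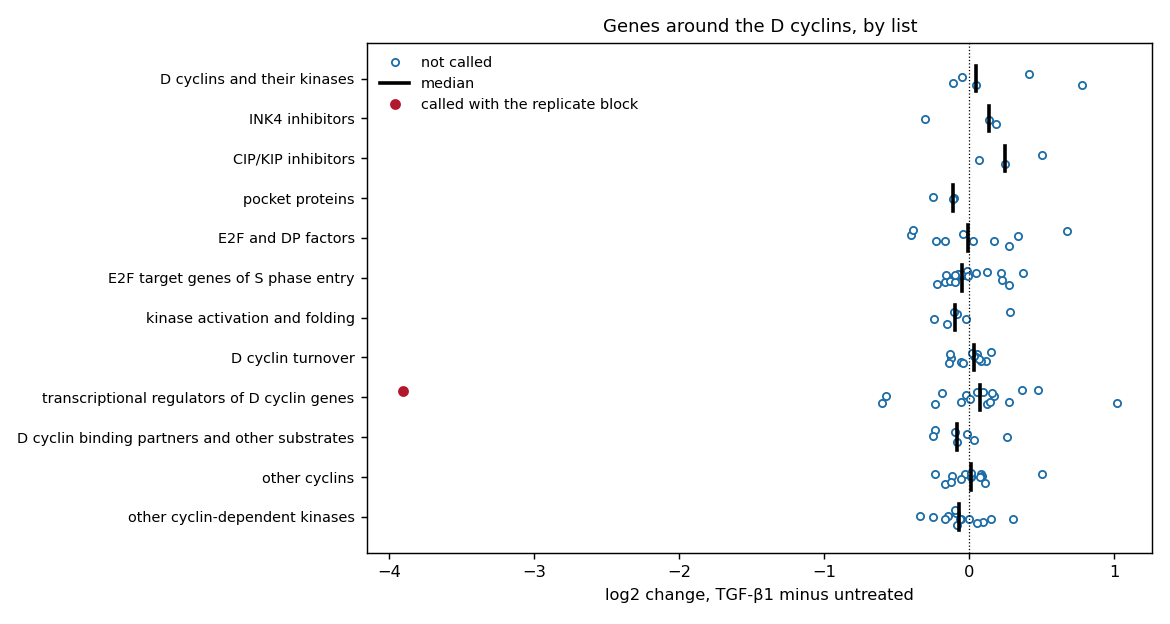
Log2 change of each measured gene in the 12 lists, with a black bar at the median of each list and a filled symbol for the gene that passed with the replicate block. Mycn stands at -3.90 and the other genes lie between -0.60 and 1.02, with Ccnd1 at 0.78 in the top row.

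Markers of other cell types were measured beside these genes. The 6 stem and progenitor markers had a summed level of 125.5 to 133 on untreated and 130.8 to 148 on treated arrays. Single markers of this list went opposite ways in all 3 pairs. Kit had differences of -0.50, -0.40 and -0.50 and Ptprc -0.39, -0.22 and -0.55. Cd34 had 0.58, 0.41 and 0.17 and Ly6a 0.18, 0.30 and 0.17. None of these genes passed. The 6 granulocyte markers had 553.4 to 653.2 and 554.7 to 579.9, and the 4 measured macrophage markers 139.5 to 177.4 and 143.4 to 160.1. The 4 megakaryocyte markers had 20.7 to 70.8 and 17.9 to 63.5, the 5 mast cell and basophil markers 22.3 to 33.7 and 18.1 to 28.4, the 5 lymphocyte markers 1.91 to 2.43 and 1.71 to 2.27, and the 4 measured erythroid markers 0.347 to 0.453 and 0.363 to 0.424. The ranges of the untreated and treated arrays overlapped for all 8 lists, the stromal list included. Within pairs, the sum was higher on the treated array in all 3 pairs for the stem and progenitor list. It was lower in all 3 for the mast cell list (27.2 to 23.1, 33.7 to 28.4 and 22.3 to 18.1) and the lymphocyte list (2.38 to 2.25, 2.43 to 2.27 and 1.91 to 1.71). Of all single genes tested, 34.2% kept one direction in all 3 pairs. The part of the marker lists in the values of the D cyclins was not tested.

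**Figure D4:**
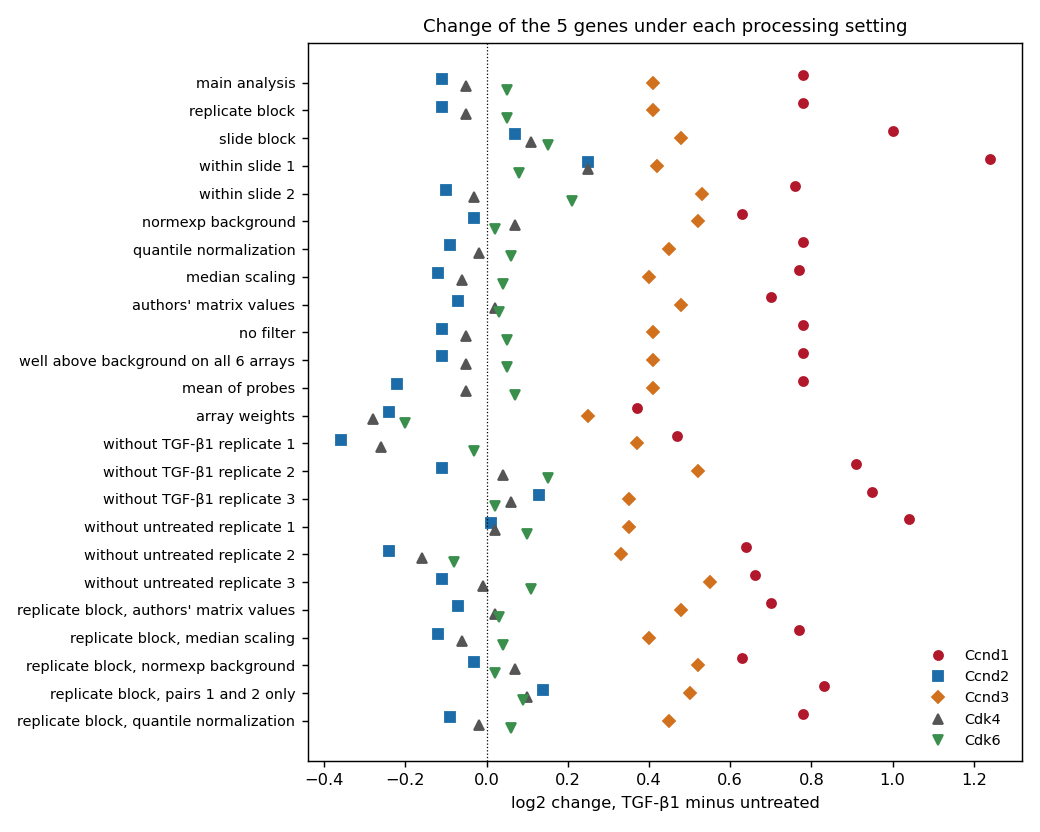
Log2 change of the 5 genes under the main analysis and each of 23 other settings. Ccnd1 lies between 0.37 and 1.24 and Ccnd3 between 0.25 and 0.55 in these settings, while Ccnd2, Cdk4 and Cdk6 lie on both sides of 0.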

How the data were processed

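RNA of the 6 samples was labelled with Cy3 and hybridised to 1-colour Agilent arrays of design 014868, annotated on build mm8, and spot intensity was read by Agilent Feature Extraction (version 10.1.1.1), per the file headers. The deposited processed intensity is background-subtracted and detrended within the array, and carries no scaling across arrays, as the file headers record. A matrix that the authors deposited holds log2 values, and these follow the log2 median signal of the same arrays (r between 0.99951 and 0.99989, column medians between 7.385 and 7.42). The submitters' processing notes name limma. The sources used here do not give how it was applied.

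The processed signal was divided by the array's 75th percentile over 43379 non-control spots and put on the log2 scale. Spots of one probe were averaged without outlier spots (43 to 101 per array). Probes well above background on at least 3 arrays entered (36386). Names came from the unversioned RefSeq accession (23374 probes named, 17800 not). Each gene was represented by its brightest passing probe, and each probe of the members was also fitted. The fit used lmFit and eBayes from limma 3.58.1 (R 4.3.3) with no covariate. The number of arrays limits the precision, and 0 spots were saturated. The fit was tested on simulated data.

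Deviations from the group means correlated at 0.607, 0.777 and 0.545 for samples of the same number and at -0.725 to 0.0713 for others, so the replicate number, from the labels and the independent harvests of the series design, was taken as pairing the samples. Slide membership came from the array files. Alternatives were the replicate block, the slide as a block or alone, other background correction, scaling, filters and probe summaries, array weights, the authors' matrix values and leaving out each array.

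The members and lists were chosen with earlier results of these data known. Named from the lists are genes past the threshold with or without the block, and otherwise the 2 with the greatest difference of each list. The 3 genes most like each member are those with the highest Pearson's r over the 6 arrays, among genes with at least 50% of its SD. Of the list genes, 1 was matched through an older symbol.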

Additional observations from a re-analysis of the deposited data

How the results depend on the processing

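Ccnd1 and Ccnd3 kept a positive difference in all 23 alternatives (0.37 to 1.24 and 0.25 to 0.55), and neither passed in a planned one. Not all of these alternatives could give another difference. With every pair kept, the replicate block leaves the fitted difference as it was and changes only its precision. The other filters and the mean of probes return the main value for Ccnd1 and Ccnd3, which have 1 probe each. The 23 are therefore not separate checks of the sign. Ccnd1 passed with the replicate block on the authors' matrix values (0.70), and within slide 1 it was 1.24. Ccnd2 turned positive with the slide as a block (0.07) and with the replicate block on pairs 1 and 2 (0.14), and ran from -0.36 to 0.13 with single arrays left out. Cdk4 turned positive with the authors' matrix values (0.02, also with the replicate block), normexp (0.07, also with the block), the slide as a block (0.11), pairs 1 and 2 (0.10) and within slide 1 (0.25), and ran from -0.26 to 0.06 with single arrays left out. Cdk6 turned negative with array weights (-0.20), had 0.21 within slide 2 and ran from -0.08 to 0.15 with single arrays left out. The causes were not tested.

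The count of genes past the threshold was 74. It was 5 with normexp, 44 with median scaling, 171 with the authors' matrix values, 660 with array weights (470 higher, 190 lower, against 66 and 8), and 7 to 23 with single arrays left out. It was 190 with the replicate block, and with the block also 719 (515 higher, 204 lower) on the matrix values, 374 with quantile normalization, 423 (328 higher, 95 lower) with median scaling and 0 by limma with normexp, where 2185 genes had an unadjusted p under 0.05. Normexp used the median spot signal, in place of the planned mean signal, and moved the median of all genes to -0.16, and relative to it the members had 0.79 (Ccnd1), 0.14 (Ccnd2), 0.69 (Ccnd3), 0.23 (Cdk4) and 0.18 (Cdk6). The combinations with the block, other than pairs 1 and 2, were chosen after the data were seen. At the 75th percentile scaling the block changed the call of Mycn and of no other gene of the lists. On the matrix values it added Ccnd1, Mycn, Myc, Bcl6 and Ctnnb1, with quantile normalization Mycn and Bcl6, and with median scaling Mycn.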
